A study of Mus musculus with 24 samples.

Results

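The genes described here carry the symbols of proteins of the cytosolic ribosome, and among them Rps4l is classed by RefSeq as a transcribed pseudogene. They were taken from the deposited mRNA table by gene symbol: Rps or Rpl followed by a number and at most 1 of the letters a, l, x or y, together with Rplp0, Rplp1, Rplp2 and Rpsa. The rule found 83 of the 36096 genes in the table (488 of its 119414 transcripts), 32 of the small and 51 of the large subunit. Of these, 79 passed the filter on low values, all 32 small-subunit genes and 47 of the large subunit, and entered the tests among 15786 genes in all. All 79 were at 0.5 FPKM (fragments normalised for transcript length and library size) or more in each of the 12 libraries, so none passed through one genotype alone. The other 4, Rpl3l, Rpl39l, Rpl10l and Rpl6l, had at most 13 counts in any library and were not tested.

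RNA came from the medial frontal cortex at postnatal day 28 in 4 groups of 3 samples: Dnmt3l males, Dnmt3l females, control males and control females. Dnmt3l mice were offspring of a cross between a line with a conditional Dnmt3l knock-in and Emx1-cre mice, and control mice were offspring of Emx1-cre mice, so both genotypes carried Cre, and all were C57BL/6J. Emx1-cre acts in the Emx1 lineage of the dorsal forebrain, excitatory cortical neurons and glia among them. Interneurons, microglia and vessel cells arise elsewhere, so the tissue mixed cells in which Cre acts with cells in which it does not. Dnmt3l is a catalytically inactive cofactor of the de novo DNA methyltransferases. Libraries were made from RNA depleted of ribosomal RNA. The labels do not say whether the replicates came from separate animals, so a p-value here speaks of the variation among these libraries, part of which may be technical.

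A cytosolic ribosome is built from a small subunit, which reads the mRNA, and a large subunit, which joins amino acids. Each ribosomal protein is needed in about the same amount, and in mammals most are encoded by 1 active gene beside many processed pseudogenes, copies of the mRNA that lie elsewhere in the genome. The mRNAs of ribosomal proteins begin with a run of pyrimidines, the 5' terminal oligopyrimidine (TOP) motif, through which mTORC1 and the RNA-binding protein Larp1 govern their translation and stability. In neurons these mRNAs are also found in axons and dendrites.

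Library totals ran from 22144970 to 26842726 expected counts in Dnmt3l and from 27074837 to 32100277 in controls. Dnmt3l itself had 521 to 1179 counts in the 6 Dnmt3l libraries and 0 to 3 in the 6 controls. Dnmt3l female replicate 1 had the highest Dnmt3l level. It nevertheless lay near the controls for the gene lists outside the cytosolic ribosome that are compared library by library below. Control male replicate 3 and control female replicates 1 and 2 held transcripts of liver proteins: 10 liver markers other than Ttr summed to 78.4, 94.4 and 100.2 CPM (counts scaled to a common library size) there, against 0.541 to 1.93 CPM in Dnmt3l and 0.262 to 0.553 CPM in the other 3 controls. Of the marker lists, 7 of 8 astrocyte, 7 of 8 microglial, 7 of 9 oligodendrocyte-lineage and 8 of 8 endothelial and pericyte genes were called higher in Dnmt3l. Of 10 excitatory-neuron markers 2 were called higher and 4 lower, and of 8 interneuron markers 2 were called higher and 5 lower. Of 8 striatal and 7 choroid plexus markers 1 each was called lower and 0 higher. The 8 astrocyte markers summed to 7399 to 13642 CPM in Dnmt3l and 6594 to 7206 CPM in controls. Excitatory-neuron markers summed to 5958 to 7162 CPM in Dnmt3l and 4589 to 5504 CPM in controls. A sum is weighted to its most abundant markers, and the median log2 change of these 10 was -0.33. Interneuron markers summed to 498 to 618 CPM in Dnmt3l and 630 to 716 CPM in controls. Microglial markers summed to 278 to 545 CPM in Dnmt3l and 252 to 283 CPM in controls, oligodendrocyte-lineage markers to 3352 to 10716 CPM in Dnmt3l and 3448 to 6279 CPM in controls, and endothelial and pericyte markers to 341 to 653 CPM in Dnmt3l and 302 to 334 CPM in controls. Of 10 tested liver markers 9 were called lower and 0 higher. Of 5 red blood cell markers 4 were called lower, with sums of 72.1 to 217.5 CPM in Dnmt3l and 105.6 to 512.5 CPM in controls. Of all the markers listed, Fgb and Serpina3k, both of liver, were at 0 in every Dnmt3l library, and none was at 0 in every control. Mitochondrially encoded genes took 3.73% to 7.30% of counts in Dnmt3l and 2.63% to 3.59% in controls. The part of these shifts in the values below was not tested. In bulk tissue, fewer cells of a type and less RNA per cell cannot be told apart.

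The ribosomal protein genes together made up under 1% of each library. They took 0.400% to 0.462% of counts in Dnmt3l and 0.436% to 0.474% in controls, and with mitochondrially encoded genes left out of the total 0.424% to 0.499% in Dnmt3l and 0.452% to 0.487% in controls. Scaled by the trimmed mean of M values (TMM), their summed level was 4453 ± 301 CPM in Dnmt3l and 4420 ± 93.3 CPM in controls (SD, n = 6 each), and the ranges overlapped. Summed FPKM, which corrects for transcript length, was 9694 ± 543 in Dnmt3l and 10167 ± 401 in controls (SD, n = 6 each), and these ranges overlapped too.

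Single genes differed widely in level, although the ribosome needs their products in equal amounts. Mean FPKM over the 12 libraries ran from 6.54 (Rpl12) to 555.2 (Rpl38), with a median of 94.4 over the 79 genes. The small-subunit median was 96.2 FPKM and the large-subunit median 89.4 FPKM. The highest were Rpl38, Rpl29, Rpsa, Rps2 and Rps24. Rpl38, a large-subunit protein known for its part in translating Hox mRNAs, averaged 558.7 ± 63.9 FPKM in Dnmt3l and 551.8 ± 33.1 FPKM in controls (SD, n = 6 each). Rpl29 averaged 450.4 ± 46.1 FPKM in Dnmt3l and 442.5 ± 50.5 FPKM in controls (SD, n = 6 each). From Rpl29 down to Rps24, each gene differed from the next in this order by less than the SD of their libraries. The 6 genes under 20 FPKM were Rpl12, Rps4l, Rpl32l, Rps27l, Rpl10 and Rpl39, and of these Rps4l, Rpl32l and Rps27l carry the name of a paralog or like gene. The level of Rpl10 is uncertain, because pseudogenes named for it took 90.9% of the family's counts.

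The start sites of 7 members are shown because they hold a pyrimidine run, the feature through which these mRNAs are regulated together, and because the members include genes called lower (Rps15a, Rps6, Rpl15, Rpl14), called higher (Rps2, Rpl32l) and not called (Rplp2). Each is a window of 50 bases from RefSeq's annotation of GRCm38.p6, from 30 bases before the annotated start to 20 bases from it, written 5' to 3' on the gene's strand, with the pyrimidine run in capitals.
Rps15a (chr7:118116128-118116177, minus strand): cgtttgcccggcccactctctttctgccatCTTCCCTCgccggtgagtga
Rps6 (chr4:86857348-86857397, minus strand): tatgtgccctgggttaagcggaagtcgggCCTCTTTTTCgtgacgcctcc
Rpl15 (chr14:18270967-18271016, minus strand): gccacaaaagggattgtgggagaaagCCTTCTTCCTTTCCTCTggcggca
Rpl14 (chr9:120571487-120571536, plus strand): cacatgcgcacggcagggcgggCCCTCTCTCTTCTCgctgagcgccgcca
Rps2 (chr17:24720033-24720082, plus strand): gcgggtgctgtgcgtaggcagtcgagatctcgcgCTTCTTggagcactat
Rpl32l (chr10:20208409-20208458, plus strand): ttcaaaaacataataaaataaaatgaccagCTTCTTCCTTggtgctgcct
Rplp2 (chr7:141447621-141447670, plus strand): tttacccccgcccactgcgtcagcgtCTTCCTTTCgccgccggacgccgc

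A pyrimidine run was taken as a C followed by at least 4 further C or T on the gene's strand, beginning within 10 bases of the annotated start. Of the 83 genes 61 had a start window in the RefSeq table, and 39 of the 61 (63.9%) held such a run, against 34.4% of the 27025 genes with a window. The motif CCGGAAG, searched on both strands of 300 bases around the start, stood in 41% of the 61 and in 9.93% of all genes with a window, and AAGATGGCG, searched the same way, in 4.92% of the 61 and in 1.64% of all genes with a window. CCGGAAG is the core of sites bound by ETS factors and AAGATGGCG that of the YY1 site. Of the 58 tested genes with a window, the run stood in 3 of 7 called higher in Dnmt3l, 7 of 9 called lower and 26 of 42 not called. These are matches of letters near annotated starts, not measured start sites.

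Averaged over sexes, the median size of change of ribosomal protein genes was smaller than that of all genes tested, and calls went in both directions with TMM scaling. By edgeR's quasi-likelihood test with Benjamini-Hochberg adjustment over all 15786 genes, 7 of 79 were called higher and 11 lower in Dnmt3l at an adjusted p under 0.05 with TMM scaling, 10 and 8 with upper-quartile scaling, and 0 and 20 with library totals alone. Of all genes, 4563 were called higher and 3735 lower with upper-quartile scaling (52.6%), and 2834 and 5164 with library totals alone (50.7%, median -0.076). With TMM scaling all genes had 51.5% called (25.2% higher and 26.4% lower), so the members' 18 calls, 22.8%, were below that background. Their median log2 change was -0.0030, against 0.016 over all genes, and their median size of change 0.12, against 0.33. Past 1.5-fold lay 3 members (Rps4l, Rpl10 and Rpl32l), against 20.9% of all genes. The median SE of a member's log2 change was 0.087 (0.060 to 0.26). Without Dnmt3l female replicate 1 the calls were 6 higher and 21 lower, with 62.9% of all genes called. Without the 3 controls with liver transcripts they were 2 higher (Rps28 and Rps29, neither among the 7) and 6 lower, with 27.6% of all genes called. Leaving out any other single library gave 2 to 6 higher and 6 to 11 lower, with 45.6% to 47.4% of all genes called.

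**Figure D1:**
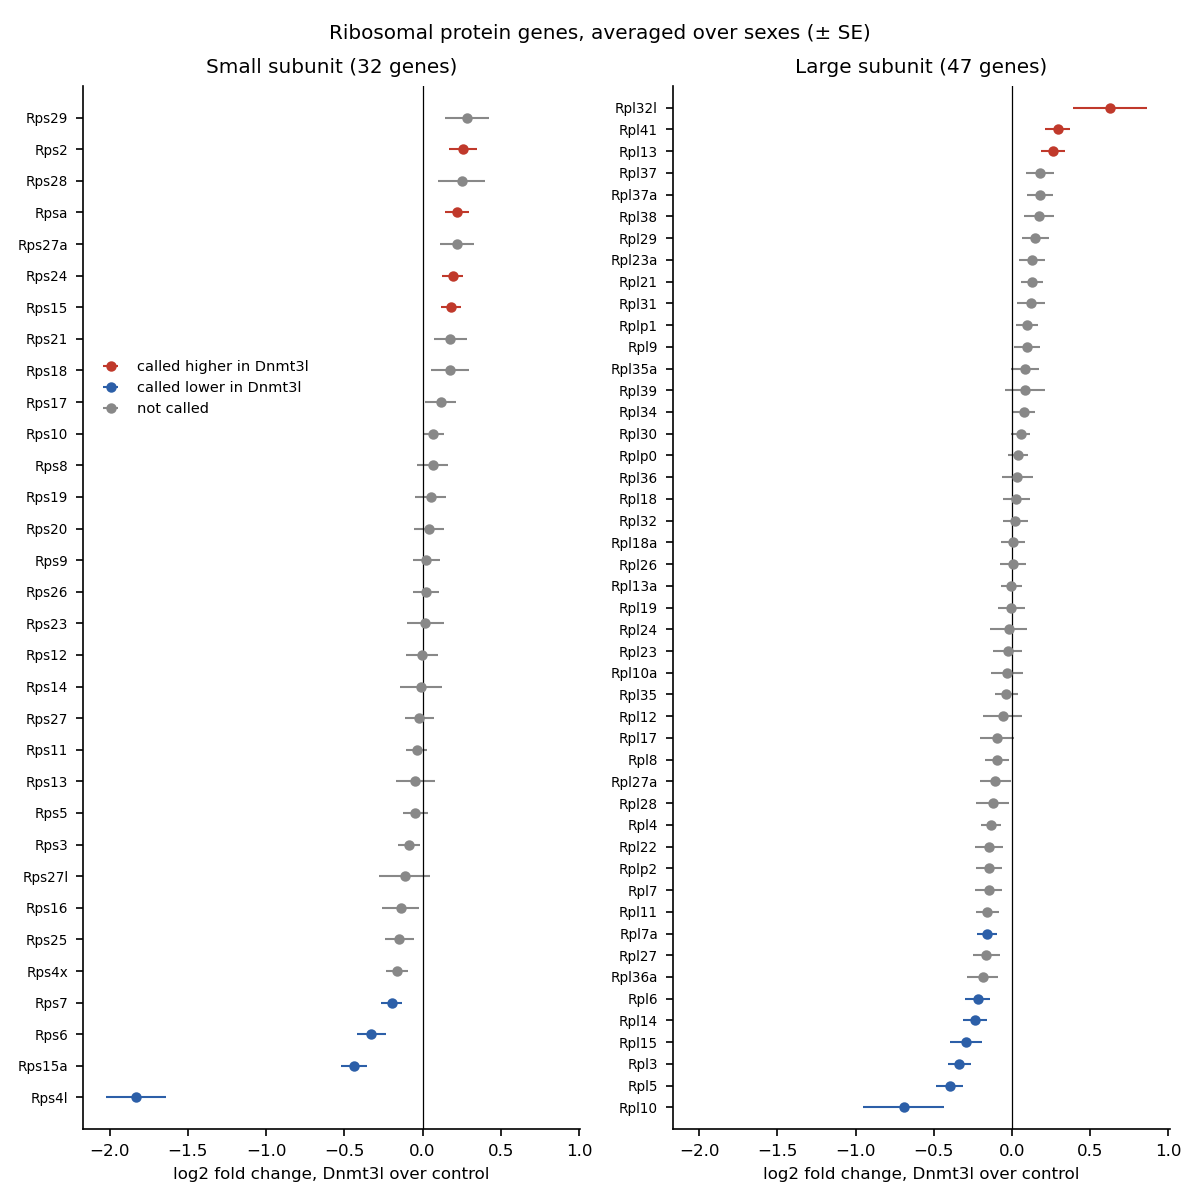
Log2 fold change of Dnmt3l over control for each tested ribosomal protein gene, averaged over sexes (x axis), with its SE, the 32 small-subunit genes on the left and the 47 large-subunit genes on the right. Red and blue mark genes called higher (7) and lower (11) with TMM scaling, and none is called higher when library totals alone are used; most of the grey points lie within 0.20 of 0, and Rps4l stands apart at -1.83.

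**Figure D2:**
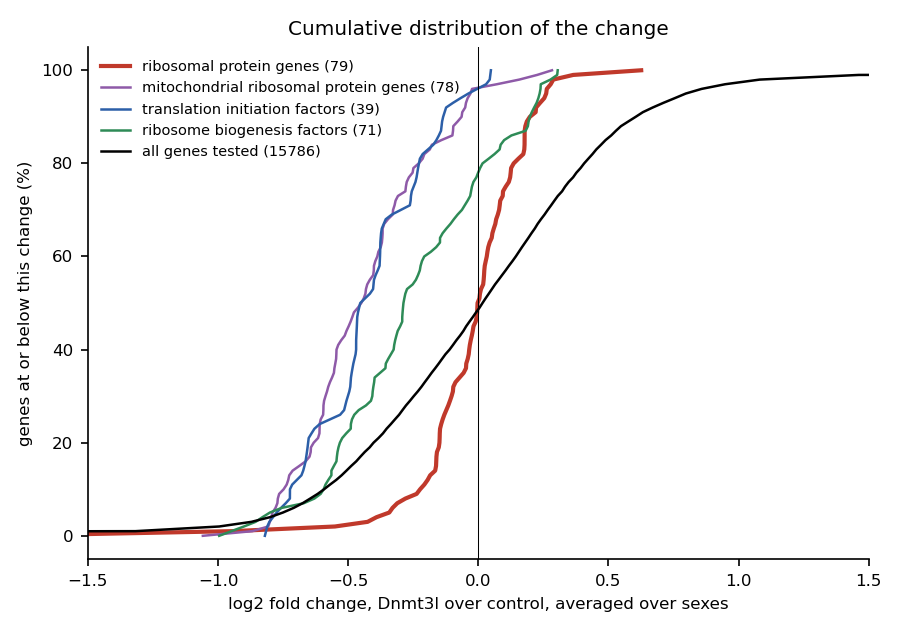
Share of genes (y axis, %) at or below each log2 fold change of Dnmt3l over control averaged over sexes (x axis), for 4 gene lists and all 15786 genes tested. The curve of ribosomal protein genes is steep and crosses its middle near 0, while those of mitochondrial ribosomal protein genes and translation initiation factors cross theirs at -0.45.

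Of the small subunit, 4 of 32 genes were called lower. Rps15a, a small-subunit protein conserved from bacteria, had 46.3, 39.8 and 46.8 CPM in Dnmt3l males and 70.6, 56.4 and 50.01 CPM in Dnmt3l females, against 72.7, 68.7 and 69.3 CPM in control males and 66.0, 69.2 and 70.3 CPM in control females. Of the 6 Dnmt3l libraries 5 lay below every control, and Dnmt3l female replicate 1 lay among them. Its log2 change was -0.44 ± 0.083 (SE, n = 6 each, edgeR adjusted p = 0.00103), and it kept its call in every alternative tried. The call rested on the gene's long transcript, described below, and its short transcript was not called. Rps6, the substrate of the S6 kinases downstream of mTORC1, had 53.5, 63.6 and 60.8 CPM in Dnmt3l males and 79.6, 56.2 and 62.0 CPM in Dnmt3l females, against 87.7, 73.7 and 76.4 CPM in control males and 73.5, 84.3 and 75.004 CPM in control females. It showed the same arrangement, with Dnmt3l female replicate 1 alone among the controls, and a log2 change of -0.33 ± 0.090 (SE, edgeR adjusted p = 0.00907). Its call was lost in 1 alternative, without the 3 controls with liver transcripts (adjusted p = 0.0762). Rps7, a small-subunit protein that also binds Mdm2, changed by -0.20 ± 0.068 (SE, edgeR adjusted p = 0.0256).

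Of the large subunit, 7 of 47 genes were called lower, and 3 of these, Rpl5, Rpl3 and Rpl15, stood at -0.29 or below beside Rpl10. Rpl5, which carries the 5S ribosomal RNA into the large subunit and can inhibit Mdm2, had 20.9, 17.0 and 20.5 CPM in Dnmt3l males and 22.1, 19.6 and 18.2 CPM in Dnmt3l females, against 26.7, 26.6 and 22.05 CPM in control males and 24.99, 26.7 and 29.1 CPM in control females. The highest Dnmt3l library and the lowest control were nearly equal, and the log2 change was -0.40 ± 0.087 (SE, n = 6 each, edgeR adjusted p = 0.00238). Rpl3, a large protein close to the peptidyl transferase centre, had 123.3, 120.2 and 130.1 CPM in Dnmt3l males and 143.5, 111.0 and 112.9 CPM in Dnmt3l females, against 163.6, 164.5 and 150.6 CPM in control males and 147.8, 149.4 and 159.8 CPM in control females. All 6 Dnmt3l libraries lay below all 6 controls, as for 6.83% of all genes tested, with a log2 change of -0.34 ± 0.072 (SE, edgeR adjusted p = 0.00211). Rpl5 and Rpl3 kept their calls in every alternative tried, whereas Rpl15 (-0.29 ± 0.10, SE, edgeR adjusted p = 0.029) lost its call when any of 6 single libraries was left out. Rpl14, Rpl6 and Rpl7a were called lower at -0.24, -0.22 and -0.16. Rpl14 lost its call without the 3 controls with liver transcripts and with the main transcript alone.

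Apart from Rpl32l, the genes called higher changed by 0.18 to 0.29 on the log2 scale. Rpl41, which encodes the smallest ribosomal protein, had 73.6, 83.4 and 100.8 CPM in Dnmt3l males and 84.0, 71.2 and 76.2 CPM in Dnmt3l females, against 71.1, 68.8 and 67.9 CPM in control males and 68.4, 64.5 and 58.9 CPM in control females. It was the only member with all 6 Dnmt3l libraries above all 6 controls, an arrangement found in 5.47% of all genes tested, although its lowest Dnmt3l library and its highest control were nearly equal. Its log2 change was 0.29 ± 0.080 (SE, n = 6 each, edgeR adjusted p = 0.00901). Rpl13, a large-subunit protein, had 47.9, 49.1 and 55.8 CPM in Dnmt3l males and 54.6, 45.6 and 56.9 CPM in Dnmt3l females, against 42.4, 47.9 and 46.6 CPM in control males and 43.2, 38.0 and 40.5 CPM in control females. The groups overlapped at their edges, and the log2 change was 0.26 ± 0.076 (SE, edgeR adjusted p = 0.011). Neither Rpl41 nor Rpl13 was called with library totals alone, on FPKM, or without the 3 controls with liver transcripts.

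Rps2, which lines the mRNA entry channel, had 271.2, 256.2 and 272.4 CPM in Dnmt3l males and 166.4, 218.5 and 244.2 CPM in Dnmt3l females, against 203.0, 185.7 and 213.3 CPM in control males and 172.9, 213.8 and 195.8 CPM in control females. In 5 Dnmt3l libraries it stood above all controls, and in Dnmt3l female replicate 1 below all of them. Rpsa, the small-subunit protein also known as the laminin receptor precursor, had 454.2, 427.7 and 440.6 CPM in Dnmt3l males and 283.1, 354.6 and 398.4 CPM in Dnmt3l females, against 335.2, 351.4 and 358.1 CPM in control males and 313.7, 345.4 and 304.6 CPM in control females. Here 4 Dnmt3l libraries stood above all controls and Dnmt3l female replicate 1 again below all of them. Their log2 changes were 0.26 ± 0.090 and 0.22 ± 0.077 (SE, edgeR adjusted p = 0.0265 and 0.0276), and each lost its call in 12 of the 25 alternatives. Rps24, mutated in some humans with Diamond-Blackfan anaemia, and Rps15 were called higher at 0.19 and 0.18, and Rps24 also lost its call in 12 alternatives.

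**Figure D3:**
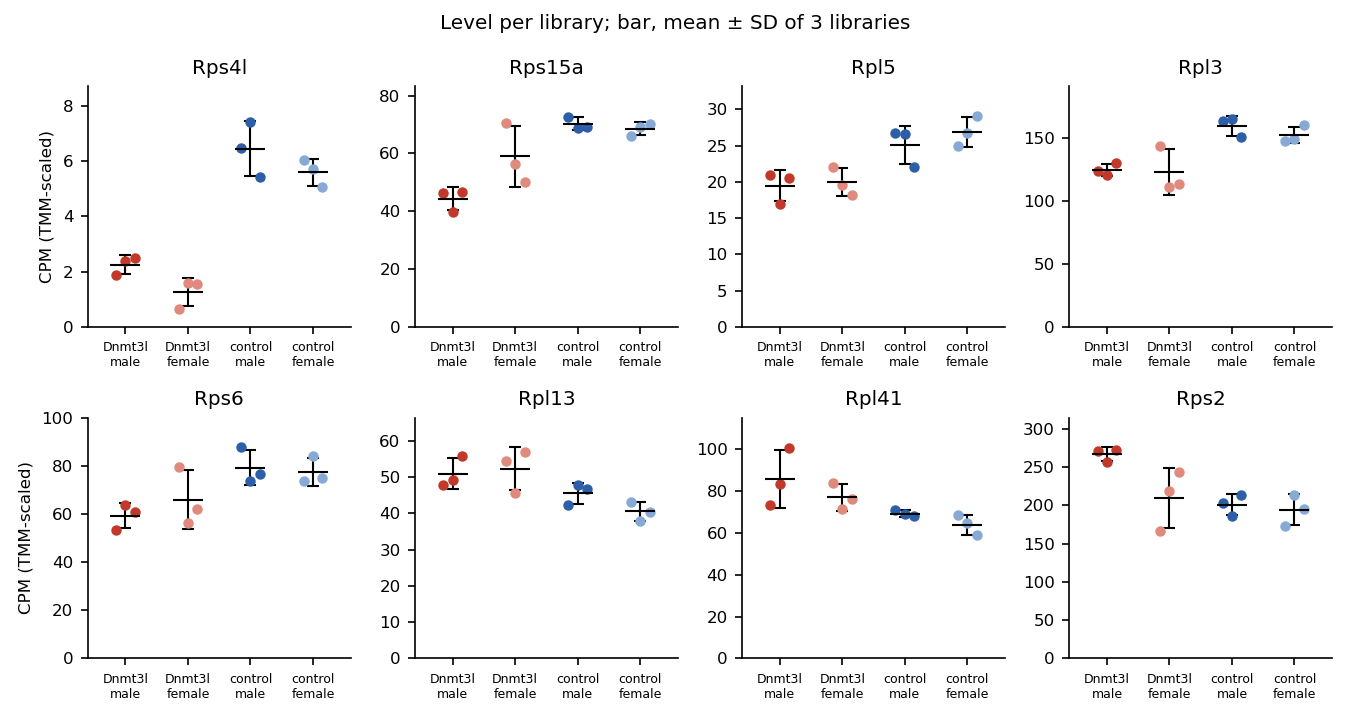
Level of 8 ribosomal protein genes in each library (y axis, CPM after TMM scaling, from 0) in Dnmt3l males, Dnmt3l females, control males and control females; points are libraries and the bar is the mean ± SD of 3. Rps4l and Rpl3 are lower in all 6 Dnmt3l libraries than in all 6 controls, and Rpl41 is higher with TMM scaling but not called with library totals alone.

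The other 61 tested members were not called. Rplp0, Rplp1 and Rplp2 form the stalk of the large subunit that recruits elongation factors. Rplp0, often used as a reference gene for quantitative PCR, changed by 0.036 ± 0.065, Rplp1 by 0.095 ± 0.072 and Rplp2 by -0.15 ± 0.083 (SE, edgeR adjusted p = 0.666, 0.285 and 0.151). The largest changes among the uncalled were those of Rps29 (0.29 ± 0.14), Rps28 (0.25 ± 0.15) and Rps27a (0.22 ± 0.11), the last a ubiquitin fusion, whose libraries varied more (SE, edgeR adjusted p = 0.106, 0.176 and 0.1001). Without the 3 controls with liver transcripts Rps28 (0.50, adjusted p = 0.0389) and Rps29 (0.47, adjusted p = 0.0437) were called higher, and Rps29 also without control female replicate 1. Rps28, for instance, had 19.95, 19.97 and 20.8 CPM in Dnmt3l males and 13.8, 11.3 and 17.7 CPM in Dnmt3l females, against 16.4, 13.9 and 12.6 CPM in control males and 17.5, 16.1 and 9.30 CPM in control females. Rpl38 and Rpl29, the members with the highest level, changed by 0.17 ± 0.097 and 0.15 ± 0.088 (SE, edgeR adjusted p = 0.149 and 0.169).

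Rps4l was the member with by far the largest change. It is a copy of the gene of the small-subunit protein Rps4 and lies on chromosome 6 (GRCm38, 148354656 to 148355598, plus strand). RefSeq classes it as a transcribed pseudogene, and whether it yields a protein was not tested. It had 1.88, 2.38 and 2.50 CPM in Dnmt3l males and 0.66, 1.58 and 1.54 CPM in Dnmt3l females, against 6.47, 7.43 and 5.44 CPM in control males and 6.02, 5.69 and 5.06 CPM in control females. All 6 Dnmt3l libraries lay below all 6 controls, and the lowest was Dnmt3l female replicate 1, the library that lay among the controls for Rps15a and Rps6. Its log2 change was -1.83 ± 0.19 (SE, n = 6 each, edgeR adjusted p = 0.000142), a level 0.28 times that of controls, and it ran from -1.93 to -1.63 over the alternatives with every call kept. Of its 2 transcripts the 789-nucleotide one was called lower (-1.82 ± 0.44, SE, edgeR adjusted p = 0.0217 over transcripts), and the 943-nucleotide one had -2.20 ± 0.95 without a call (adjusted p = 0.155).

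The X-linked parent of this copy, Rps4x, had at least 1293 counts in every library, against 17 to 227 for Rps4l. Rps4x changed by -0.16 ± 0.070 (SE, edgeR adjusted p = 0.0691). Rps4l lies inside the span of Tmtc1, a gene on the opposite strand, which changed by 0.11 ± 0.068 (adjusted p = 0.176). Within 1 Mb of Rps4l, 11 other genes were tested, of which 3 were called higher and 3 lower, with log2 changes of -0.46 to 0.56. Whether the authors' counting used strand is not given in the labels, so reads of the 2 genes may not have been kept apart.

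Other paralogs were low. Rpl32l, which RefSeq classes as protein-coding, had 2.24, 1.56 and 1.78 CPM in Dnmt3l males and 1.13, 1.17 and 0.98 CPM in Dnmt3l females, against 0.66, 1.08 and 0.66 CPM in control males and 0.83, 1.41 and 0.95 CPM in control females. The 3 Dnmt3l males stood above all controls and the 3 Dnmt3l females among them. The log2 change was 0.63 ± 0.24 averaged over sexes (SE, edgeR adjusted p = 0.0418), on 19 to 50 counts per library, and the call was lost in 15 of 25 alternatives. Rps27l, a paralog of Rps27 that p53 induces, changed by -0.11 ± 0.16 (SE, edgeR adjusted p = 0.579).

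Reads shared with pseudogenes bear on several members, because the table lists 316 genes named as pseudogenes of 62 of the 83 members. Of these 316, 142 had counts and 45 passed the filter. Of the 45, 7 were called higher in Dnmt3l and 1 lower (15.6% and 2.22%), both below the shares of all genes, 25.2% and 26.4%. Only genes with a member's symbol followed by -ps were counted. The shares below are therefore lower bounds wherever pseudogenes carry other names, and members without such a pseudogene were not covered. Summed over a family, the median share of counts on these pseudogenes was 0.14%, and 40 of 62 families had under 1%. In 11 families it was over 10% and in 3, those of Rpl10, Rpl31 and Rps23, over 50%. How reads were divided between near-identical copies is not given in the labels, so the values of these members are uncertain. The 5 pseudogenes with the most counts were Rpl10-ps3 (21280), Rps6-ps4 (17200), Rpl19-ps11 (12052), Rpl31-ps8 (8555) and Rpl10a-ps1 (7337), of which Rps6-ps4 was called lower (-0.32 ± 0.082, SE, edgeR adjusted p = 0.00622). All 316 named pseudogenes together took 0.025% to 0.031% of counts in Dnmt3l and 0.030% to 0.034% in controls.

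Rpl10, an X-linked gene whose product joins the large subunit late, in the cytoplasm, was the member most affected. It had 3.67, 1.60 and 3.65 CPM in Dnmt3l males and 9.27, 7.08 and 5.001 CPM in Dnmt3l females, against 5.91, 13.4 and 9.85 CPM in control males and 7.68, 3.63 and 5.77 CPM in control females. Its pseudogenes took 90.9% of the family's counts, and Rpl10-ps3 alone changed by -0.12 ± 0.091 (SE, edgeR adjusted p = 0.297). The Rpl10 change was -0.69 ± 0.26 (SE, edgeR adjusted p = 0.0395), and with pseudogene counts added to their members it was -0.16 (adjusted p = 0.172). Its call was lost in 12 of 25 alternatives, with adjusted p-values from 0.0115 to 0.172. Rps6 kept its call when its pseudogene counts, 42.8% of the family, were added, at -0.31 (adjusted p = 0.00459). For the members as a whole, adding pseudogene counts gave 7 higher and 10 lower.

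The sexes were also taken apart. In males 8 members were called higher and 7 lower (edgeR, as above), against 43.1% of all genes called (20.4% higher and 22.7% lower), and in females 1 was called higher and 2 lower, against 9.10% of all genes (4.73% higher and 4.38% lower). Rps4l and Rpl5 were called lower in both sexes. Rpl13 was called higher in females (log2 change 0.37) and had 0.16 in males without a call, while Rplp1 (0.28) and Rpl29 (0.35) were called higher in males only and had -0.09 and -0.05 in females. The median log2 change of the members was 0.046 in males and -0.041 in females, against 0.012 and 0.011 over all genes. The difference between the male and the female effect was itself tested: 0 members and 0 of 15786 genes passed at an adjusted p under 0.05 in edgeR, with 8 members at an unadjusted p under 0.05. The largest such difference was that of Rpl10 (-2.03 ± 0.52, SE, edgeR adjusted p = 0.679). Between control females and control males 0 members were called, against 4 genes in all (0.0253%), with 1 member at an unadjusted p under 0.05. In females the spread includes replicate 1 of Dnmt3l: without it the female calls were 3 higher and 19 lower, with 47.1% of all genes called in females, and without any other single library 0 higher and 1 lower, with 0.0443% to 2.88% of all genes called.

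Members with longer transcripts tended to lower values. For each gene the length is that of its most counted transcript, which for Rps15a is the long one described below. The 30 members under 600 nucleotides had a median log2 change of 0.079, with 4 called higher and 0 lower. The 30 between 600 and 1000 nucleotides had -0.014, with 2 higher and 5 lower, and the 19 longer ones -0.12, with 1 higher and 6 lower. Across the 79 genes Spearman's rho of change on length was -0.44 (Pearson's r -0.32), a description over genes that share the same 12 libraries. All other genes of these lengths had medians of 0.29, -0.12 and 0.014. Their shortest class also had the highest median, but the medians did not fall steadily with length. Across the 15707 other genes Spearman's rho was 0.099, opposite in sign to that of the members.

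**Figure D4:**
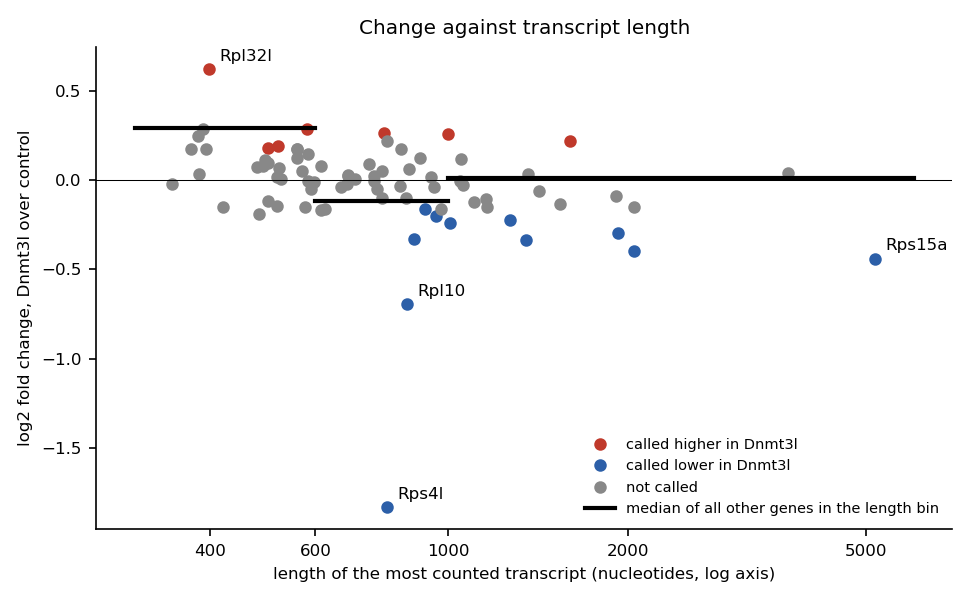
Log2 fold change of Dnmt3l over control averaged over sexes (y axis) against the length of the gene's most counted transcript (x axis, nucleotides, log axis), for the 79 tested ribosomal protein genes; black bars are the median of all other genes in 3 length bins. The genes called lower lie above 700 nucleotides, and the median of other genes is 0.29 below 600 nucleotides.

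At the level of transcripts, 363 transcripts of the 79 genes were tested among 54587, and 2 were called higher and 13 lower (4.13%), against 14% of all transcripts. The median log2 change was -0.045, against 0.065 over all transcripts, in a fit with its own scaling. Of the 13 called lower, 11 were their gene's major transcript with over 50% of its counts, those of Rpl3, Rpl4, Rpl5, Rpl6, Rpl7a, Rpl14, Rpl15, Rps4l, Rps4x, Rps6 and Rps15a. The exceptions were a transcript of Rpl12 with 9.37% of the gene's counts (-2.07 ± 0.40) and one of Rpl30 with 40.0% (-0.40 ± 0.12). The Rps15a call rested on a transcript of 5179 nucleotides that took 82.5% of the gene's counts, more than the 640-nucleotide transcript with 15.8%. The long transcript changed by -0.64 ± 0.11 (SE, edgeR adjusted p = 0.0072) and the short one by -0.25 ± 0.15 (adjusted p = 0.281). Those called higher were minor transcripts of Rpl8 and Rps3, with 1.58% and 0.466% of their gene's counts.

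Genes of the rest of the translation machinery were more often called lower in the same fit. Dnmt3l female replicate 1 was near the controls for the lists compared library by library below. Over 9 lists, 14 of 170 genes were called higher and 95 lower, against 25.2% and 26.4% of all genes, and without the 3 controls with liver transcripts 1 was called higher and 55 lower, against 12.2% and 15.5% of all genes in that fit. Of 39 translation initiation factors, which bring the ribosome to the mRNA, 31 were called lower and 0 higher (median log2 change -0.45). Eif3c, a core subunit of the eIF3 complex, fell to 83.1, 83.3 and 91.1 CPM in Dnmt3l males and 119.5, 87.7 and 83.7 CPM in Dnmt3l females, against 122.7 to 133.8 CPM in the 6 controls (-0.51 ± 0.082, SE, edgeR adjusted p = 0.000514). Of 11 elongation and termination factors 8 were called lower and 0 higher (median -0.36), among them the release factor Etf1 and the recycling factor Abce1. Of 71 ribosome biogenesis factors 39 were called lower and 5 higher (median -0.29), the lowest adjusted p-values being those of Nifk (-0.996 ± 0.13), Nip7 (-0.78 ± 0.11) and Rsl1d1 (-0.52 ± 0.080), and the higher ones including the pre-ribosomal GTPase Bms1 (0.31 ± 0.068). Of 15 genes of RNA polymerase I transcription 6 were called lower, among them the initiation factor Rrn3 (-0.49 ± 0.089), and 2 higher. Of 78 mitochondrial ribosomal protein genes, whose products form the separate ribosome of mitochondria, 56 were called lower and 1 higher (median -0.45), and of 41 proteasome subunit genes 37 were called lower and 0 higher (median -0.58).

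Genes tied to TOP mRNAs lay in between. Of 19 other mRNAs known to start with a TOP motif, 9 were called lower and 1 higher (median -0.12), those called lower including Btf3 (-0.61 ± 0.12) and Eif3h (-0.47 ± 0.091). Of 15 genes of the mTORC1 pathway and its TOP regulators 3 were called higher and 3 lower (median -0.051). Rps6kb2, one of the S6 kinases that phosphorylate Rps6, had 19.6, 20.5 and 18.7 CPM in Dnmt3l males and 11.5, 16.5 and 17.9 CPM in Dnmt3l females, against 9.61 to 12.1 CPM in the 6 controls (0.75 ± 0.11, SE, edgeR adjusted p = 0.000346). Rheb, the GTPase that activates mTORC1, changed by -0.31 ± 0.082 (adjusted p = 0.00781). Of 10 genes of ribosome rescue and hibernation 3 were called higher and 5 lower. Among genes of the cytosolic ribosome whose symbols fall outside the rule, Rpl36al (-0.46) and Rpl7l1 (-0.41) were called lower, while Rps3a1, Fau and Rpl22l1 were not called.

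Library by library, Dnmt3l female replicate 1 stood near the controls for initiation, elongation and termination, and biogenesis factors and for mitochondrial ribosomal protein genes. The other 5 Dnmt3l libraries stood below all controls for each of these lists. The remaining lists of the translation machinery were not summarised by library. For the members, Dnmt3l female replicate 1 lay just above the control range, and Dnmt3l male replicates 1 and 2 lay within it. The median deviation of the members from their control means was -0.015, 0.028 and 0.17 in Dnmt3l males and 0.060, -0.13 and -0.086 in Dnmt3l females, against -0.028 to 0.051 in controls. For initiation factors it was -0.54, -0.51 and -0.49 in Dnmt3l males and 0.00087, -0.54 and -0.53 in Dnmt3l females, against -0.031 to 0.037 in controls. Dnmt3l female replicate 1 thus stood with the controls for initiation factors, as it did for the 11 members called lower (-0.0075, against -0.40 to -0.28 in the other 5 Dnmt3l libraries), and these members were chosen by the same libraries.

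**Figure D5:**
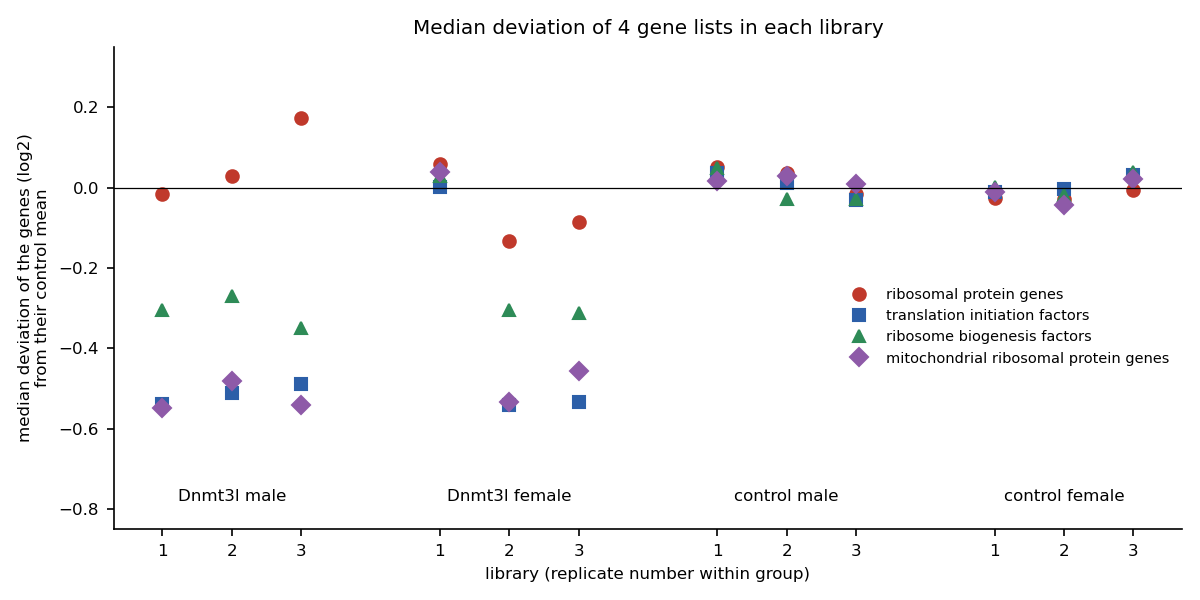
Median deviation of 4 gene lists from their control means (y axis, log2 scale, CPM with a pseudocount of 0.5) in each of the 12 libraries (x axis), Dnmt3l on the left and controls on the right. Ribosomal protein genes stay between -0.13 and 0.17, while initiation factors are near -0.5 in 5 of 6 Dnmt3l libraries and near 0 in Dnmt3l female replicate 1; each value depends on the TMM scaling, which library totals alone lower.

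Non-coding host genes of small nucleolar RNAs, many of them TOP RNAs, were scarcely represented in the long non-coding table. Of 15 such hosts, 1 row (Snhg17) was tested, with 5 counts in Dnmt3l and 15 in controls, and it was not called (-1.53 ± 1.2, SE, edgeR adjusted p = 0.649), against 0.494% of 12752 rows called. A row named for Rpl11 had 13 counts in Dnmt3l and 5 in controls and was not called either. No circular RNA in the deposited table had a member as its host gene.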

How the data were processed

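RNA of the medial frontal cortex was measured in 12 libraries, 3 in each of 4 groups by genotype and sex. Per the file headers, the authors deposited expected counts (estimated counts) and FPKM for each transcript of the mRNA and long non-coding tables, and a score per circular RNA. The submitters' processing notes list the build GRCm38, the aligner HISAT2 2.0.1 and the counter HTSeq 0.6.1, and besides them cutadapt 1.9.1, bedtools 2.17.0, DESeq2 and bcl2fastq 2.17.1.14. Which tool gave the estimates, and whether strand was used, the sources used here do not give.

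Expected counts were summed per gene and rounded to whole numbers. Genes at 0.5 FPKM or more in at least 3 libraries were tested (0.1 FPKM for long non-coding rows). All 12 libraries entered 1 fit of 4 group means, without a replicate block, by edgeR 4.0.16's quasi-likelihood test in R 4.3.3 with TMM scaling, two-sided. P-values were adjusted by Benjamini-Hochberg over all features of a contrast and called under 0.05. DESeq2 1.42.0 and limma 3.58.1 served as alternatives. The fit was tested on simulated data. Depth limits the precision of members with few counts, and intervals over counts were not used.

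The members and all lists were chosen with earlier results of these data known. Named were the 8 members with the highest and the 8 with the lowest averaged change, the 5 with the highest FPKM, paralogs ending in l, the stalk genes and Rpsa, up to 3 called genes per direction of each other list, and the 5 pseudogenes with the most counts. Rps7, Rpl6, Rpl7a, Rps15, Rps4x, the members called in 1 sex, and the called transcripts were named after their values were seen. The values of 1 gene of these lists are not reported here.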

Additional observations from a re-analysis of the deposited data

How the results depend on the processing

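Over 25 alternatives no value that was called changed its direction. Rps4l, Rps15a, Rpl5 and Rpl3 kept their calls in all of them. With limma on log2(FPKM + 0.5) and on log2(FPKM + 0.1), the averaged calls among ribosomal protein genes were 0 higher and 17 lower in both, with a median log2 change of -0.12. Of all genes 2336 were called higher and 4277 lower in the first (41.9%, median -0.049), and 2329 and 4282 in the second (41.9%, median -0.058). The members' male calls were 1 and 12 with medians of -0.16 and -0.17, their female calls 0 and 1, and the lists had 5 called higher. Library-size scaling, chosen after seeing the data, shifted the median of all genes by -0.092. For the members it gave 0 higher and 20 lower (median -0.095), against 2834 higher and 5164 lower of all genes (50.7%). In males it gave 1 and 15 (median -0.094), in females 0 higher, and in the lists 4 higher. Without a filter on low values, 4 members were called higher and 10 lower averaged, with 34.8% of all genes called. In that fit 4 were called higher in males, 0 in females and 9 in the lists. With the main transcript alone, 5 members were called higher and 6 lower averaged (median 0.076), with 41.8% of all genes called. There were 5 higher and 4 lower in males, 0 higher and 0 lower in females, and 8 higher in the lists. Without the 3 controls with liver transcripts, 2 members were called higher (neither of them called in the fit of all 12 libraries) and 6 lower averaged, with 27.6% of all genes called. In males 0 were called higher, against 9.87% of all genes, and in females 0 and 0, with 0.0127% of all genes called. The lists had 1 higher and 55 lower, against 12.2% and 15.5% of all genes, and the transcripts 0 and 0. Upper-quartile scaling left 1 lower in females and 7 transcripts lower, and adding pseudogene counts 0 higher in females. Where no share is printed, that of all genes in 1 sex or of all transcripts is not given here. The members' mean share of counts without mitochondrial genes was 0.458% in Dnmt3l and 0.472% in controls. The cause of these changes was not tested.

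With a replicate block, 5 members were called higher in males, 0 higher and 1 lower in females, and 6 transcripts lower. The averaged calls were 7 higher and 10 lower, with 50% of all genes called. The numbers did not pair the samples: of 18 same-numbered pairs 0 correlated above 0.1 (-0.33 to 0.088), and 1 of 12 libraries correlated best with its own number.

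Leaving out 1 library at a time gave, averaged, 2 to 6 higher, 6 to 21 lower and medians of -0.054 to 0.032. In males it gave 1 to 8 higher, 5 to 15 lower and medians of -0.035 to 0.073, and in females 0 to 3 higher, 1 to 19 lower and medians of -0.081 to 0.016. Of all genes 45.6% to 62.9% were called averaged, 31.7% to 53.4% in males and 0.0443% to 47.1% in females. Transcripts ranged over 1 to 4 higher and 4 to 30 lower, the lists over 9 to 17 higher and 79 to 111 lower, and Snhg17 over -2.48 to 0.20. Members with few counts, such as Rps4l and Rpl32l, are limited by depth.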
